A study of Rattus norvegicus with 4 samples.

Results

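The proteasome genes of rat lumbar dorsal root ganglia (DRG) were taken as every protein-coding gene in the deposited count table whose symbol is Psm, a letter from a to g and a number, leaving out the immunoproteasome genes Psmb8, Psmb9 and Psmb10. The rule found 44 genes of the 22293 protein-coding genes in the table, and 41 of the 44 passed the filter on low counts. RNA was sequenced from neonatal wild-type Wistar rats given either vehicle (PBS) or cisplatin, a platinum-based chemotherapeutic, at 0.3 mg/kg, in 2 intraperitoneal injections at postnatal day (P) 14 and P16. There were 2 libraries per group, each from 2 to 5 pooled lumbar DRGs, which were collected at P23 by the methods of the study and 16 days post-treatment by the sample labels. The study set out to follow inflammation in the ganglion after cisplatin, and the comparison of cisplatin-treated with age-matched vehicle-treated rats is the one its design gives.

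The proteasome is the main protease of the cytosol and nucleus for proteins tagged with ubiquitin. Its 20S core is a barrel of stacked alpha and beta rings, with the catalytic sites facing inwards on the beta rings. The 19S particle caps the barrel, binds ubiquitin chains, removes them, and unfolds and threads the substrate with a ring of ATPases. Sensory neurons depend on this system for protein turnover in the cell body, the axon and the synapse, and proteasome inhibitors used against myeloma are known for causing peripheral neuropathy.

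Subunit genes share promoter elements in many species. The promoters of the catalytic subunit genes Psmb5 and Psmb6 and of Psmb2, all 3 from the beta ring, are shown here. Each is the RefSeq sequence of build GRCr8 from 250 bases before to 50 bases after the gene start, written 5′ to 3′ on the strand of the gene. Capitals mark TGACNNNGC, the core of the antioxidant response element, and CCAAT, searched on both strands, so that ATTGG marks CCAAT on the opposite strand. The 3 shown are the beta ring promoters that held TGACNNNGC. It was absent from the promoters of Psmb1, Psmb3, Psmb4 and the other catalytic subunit gene, Psmb7. Psmb2 lies on the plus strand at chr5:144254808-144255107, Psmb5 on the minus strand at chr15:32047330-32047629 and Psmb6 on the plus strand at chr10:55737638-55737937.
Psmb2: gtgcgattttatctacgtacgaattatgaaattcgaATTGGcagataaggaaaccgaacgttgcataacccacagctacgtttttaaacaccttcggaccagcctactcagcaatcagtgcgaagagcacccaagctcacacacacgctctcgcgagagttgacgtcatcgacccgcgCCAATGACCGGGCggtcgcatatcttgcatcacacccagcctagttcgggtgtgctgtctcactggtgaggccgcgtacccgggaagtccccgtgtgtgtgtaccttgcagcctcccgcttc
Psmb5: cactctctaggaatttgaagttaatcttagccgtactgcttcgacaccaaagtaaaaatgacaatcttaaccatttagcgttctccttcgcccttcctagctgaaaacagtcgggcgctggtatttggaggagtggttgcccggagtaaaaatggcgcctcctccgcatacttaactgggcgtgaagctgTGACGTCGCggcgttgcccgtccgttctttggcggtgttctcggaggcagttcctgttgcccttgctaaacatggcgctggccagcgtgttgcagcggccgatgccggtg
Psmb6: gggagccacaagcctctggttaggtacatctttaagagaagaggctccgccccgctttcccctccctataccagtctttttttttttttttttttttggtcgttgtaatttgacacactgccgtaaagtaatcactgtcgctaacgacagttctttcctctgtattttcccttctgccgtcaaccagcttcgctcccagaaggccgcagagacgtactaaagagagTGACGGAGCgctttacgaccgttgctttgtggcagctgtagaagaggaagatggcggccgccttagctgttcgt
In Psmb2 the marked CCAAT and TGACNNNGC share 1 base. Promoters were in the table for 39 of the 44 genes, and 8 of these 39 held TGACNNNGC (20.5%), against 12.2% of all 27457 rat promoters in it. CCAAT was present in 18 of 39 (46.2%), against 37.7% of all promoters, and in 9 of the 14 promoters of 20S core genes (64.3%), 5 of 14 of the 19S particle (35.7%) and 3 of 7 of assembly chaperones (42.9%). The median log2 fold change was 0.24 in the 8 genes with TGACNNNGC and 0.25 in the 29 tested genes without it, and likewise 0.24 with and 0.25 without CCAAT.

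Total counts were 21384801 to 25618417 per library. Sensory neuron markers were present in every library, with none of 12 at 0. The libraries differed in other tissue. Schwann cell markers summed to 61499 and 156247 CPM (counts scaled to library size and TMM factor) in vehicle replicates 1 and 2 and to 47980 and 137033 CPM in cisplatin replicates 1 and 2. Vehicle replicate 1 held 460 CPM of skeletal muscle markers, against at most 50.6 CPM in any other library.

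In the cisplatin-treated DRGs, transcripts of most proteasome genes stood at higher levels than in both vehicle-treated libraries, by a modest amount. Of the 41 genes tested, 39 had a log2 fold change above 0 (all genes tested, 49.1%), and in 30 both cisplatin libraries lay above both vehicle libraries (all genes tested, 20.6%), or in 15 (all genes tested, 14.9%) when counts were scaled to library size alone. In 1 gene, Psmd10, both lay below (all genes tested, 21.2%). The median log2 fold change was 0.25, a 1.19-fold difference, against -0.01 for all 14719 genes tested, and the range was -0.61 to 0.94. Summed over the 44 genes, the level was 4874 and 4606 CPM in the vehicle libraries and 5779 and 5660 CPM in the cisplatin libraries, so the groups did not overlap. In whole ganglia, a larger share of cells of a type that is rich in these transcripts and more transcripts per cell cannot be told apart.

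No single proteasome gene passed the test. At a Benjamini-Hochberg adjusted p under 0.05 over all genes and a fold change of at least 1.5, edgeR's quasi-likelihood test called 0 of the 41 genes, and it called 1 gene, a lower one, of all 14719 (0.00679%). DESeq2 also called 0 of the 41, beside 0.649% of all genes it tested, and adjusted p-values of the 41 genes ran from 0.522 to 0.938 in edgeR. At an unadjusted p under 0.05 in edgeR, 7 of the 41 stood out (all genes tested, 9.43%), namely Psmb6, Psmb2, Psmg4, Psmb1, Psmb3, Psmg2 and Psma4, all of them higher in the cisplatin libraries. With a fold change of at least 1.5 as well, 2 of the 41 remained, Psmb6 and Psmg4, both higher (all genes tested, 2.77% higher and 7.95% in either direction). The count of 7 became 1 with scaling to library size alone, 0 with a correction for gene length, 0 without vehicle replicate 1, and 1 without each of the other three libraries in turn. No exact permutation test of 2 libraries against 2 can go below a two-sided p of 0.333, so the statements below are descriptions of the levels in 4 libraries.

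**Figure D1:**
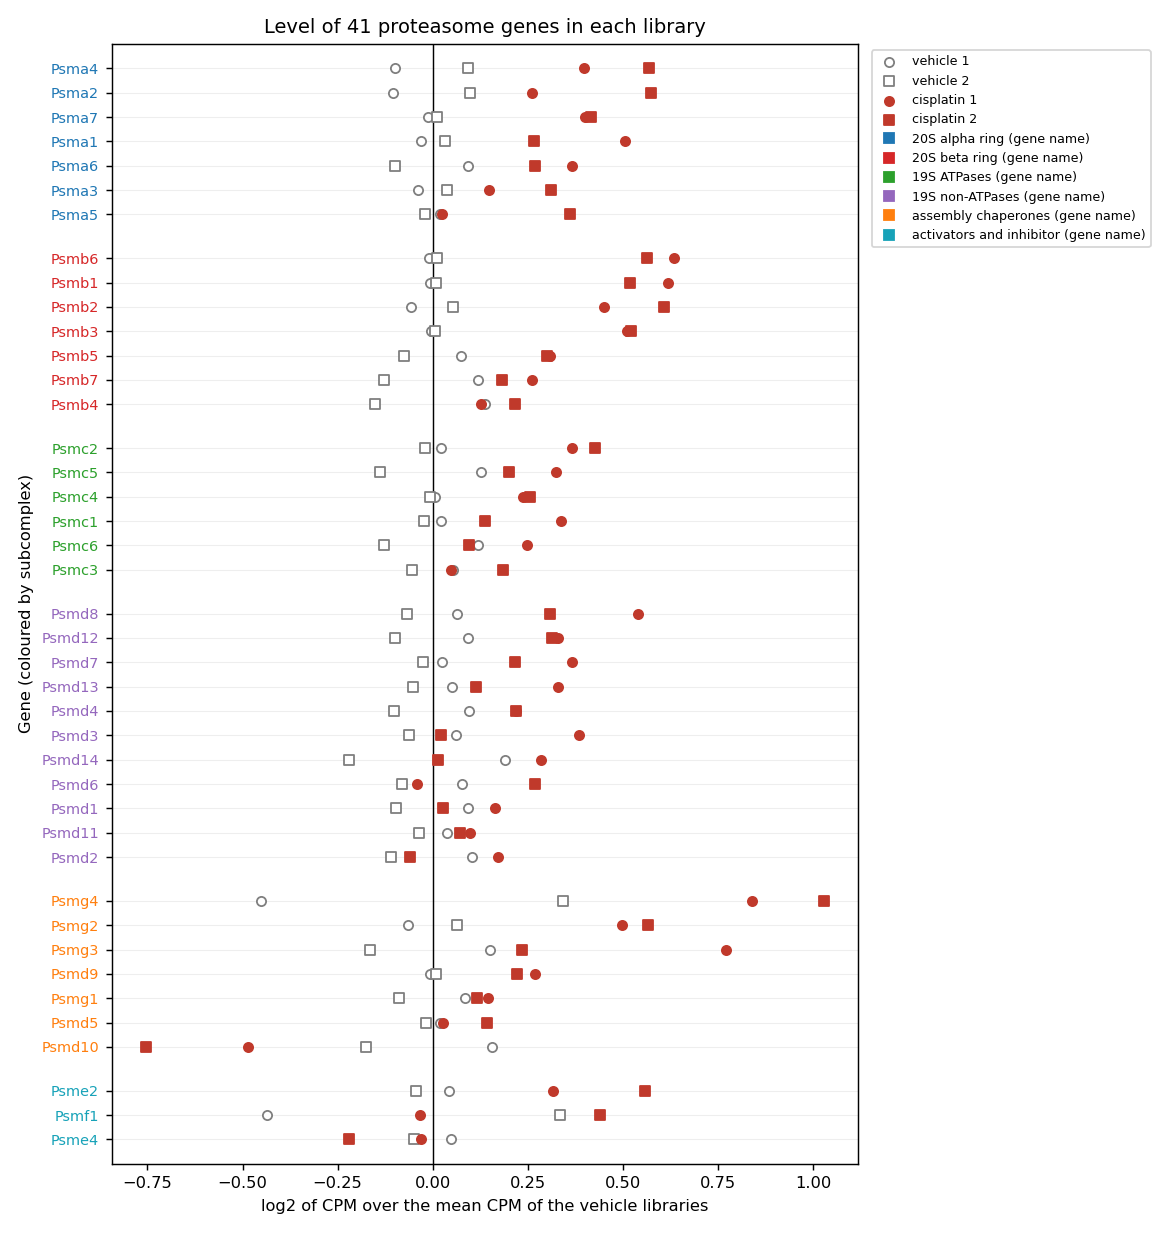
Level of each of the 41 tested proteasome genes in each of the 4 libraries, as log2 of its CPM over the mean CPM of the vehicle libraries (x axis), with genes on the y axis coloured by subcomplex. Open symbols are vehicle and filled symbols cisplatin libraries, and in 30 genes both filled symbols lie to the right of both open ones.

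The difference was present in each pairing of a cisplatin with a vehicle library. The median over the 41 genes of the log2 difference between libraries was 0.27 and 0.19 for cisplatin replicates 1 and 2 over vehicle replicate 1, and 0.38 and 0.32 over vehicle replicate 2. Within groups it was -0.09 between the vehicle libraries and -0.03 between the cisplatin libraries. Over all genes these medians stayed between -0.02 and 0.04. Cisplatin and vehicle replicates 1, which both held fewer Schwann cell marker counts, differed by 0.27 in the median, and replicates 2, which both held more, by 0.32. Sensory neuron marker sums were higher in the cisplatin library in both of these pairs. They were 36480 against 30962 CPM in replicates 1 and 26399 against 23511 CPM in replicates 2. The part of either cell type in these differences was not tested. Leaving out vehicle replicate 1, the library with the muscle markers, gave a median of 0.34, with both cisplatin libraries above the remaining vehicle library in 38 of 41 genes (all genes tested, 35.8%). Leaving out each of the others gave medians from 0.23 to 0.31. The remaining cisplatin libraries then lay above the remaining vehicle libraries in 31 of 41 genes without vehicle replicate 2 (all genes tested, 33.4%). The count was 34 without cisplatin replicate 1 (all genes tested, 31.9%) and 35 without cisplatin replicate 2 (all genes tested, 37.7%).

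The count of non-overlapping genes depended on the scale. As a raw share of all counts, the proteasome genes took 0.524% and 0.424% in the vehicle libraries and 0.581% and 0.520% in the cisplatin libraries, and on this scale vehicle replicate 1 lay above cisplatin replicate 2. Scaled to library size alone, without TMM factors, 39 of the 41 log2 fold changes were still above 0, with a median of 0.19 against -0.06 over all genes.

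The beta ring of the 20S core, which carries the proteolytic sites, had the highest median of the 6 subcomplexes. All 7 genes tested had a positive log2 fold change, with a median of 0.52. In 6 of the 7 both cisplatin libraries lay above both vehicle libraries (all genes tested, 20.6%). Psmb6 (ENSRNOG00000019551; chromosome 10, 57131386 to 57133637, plus strand, Rnor_6.0) encodes the subunit with caspase-like activity. It stood at 113 and 115 CPM in the vehicle libraries and at 176 and 168 CPM in the cisplatin libraries. Both cisplatin values lay above the vehicle pair by far more than the pair differed. Its log2 fold change was 0.60 (standard error, SE, 0.18, edgeR adjusted p = 0.522), the highest of the core, and its adjusted p from DESeq2 was 0.326.

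The genes of 3 more beta subunits, which build the ring without cutting substrates, showed differences of like size. Psmb1 stood at 166 and 168 CPM in the vehicle and 256 and 239 CPM in the cisplatin libraries, a log2 fold change of 0.57 (SE 0.20, edgeR adjusted p = 0.522). Psmb2 stood at 57.8 and 62.4 CPM in the vehicle and 82.1 and 91.6 CPM in the cisplatin libraries, with a log2 fold change of 0.53. Psmb3 stood at 116 and 116 CPM in the vehicle and 165 and 166 CPM in the cisplatin libraries, with a log2 fold change of 0.52. In each of these genes the spread within either group was smaller than the gap between the groups.

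The other catalytic genes had smaller fold changes. Psmb5, the gene of the chymotrypsin-like subunit and the main target of proteasome inhibitors, stood at 146 and 132 CPM in the vehicle and 172 and 171 CPM in the cisplatin libraries, a log2 fold change of 0.30 (SE 0.19, edgeR adjusted p = 0.623). Psmb7, the gene of the trypsin-like subunit, stood at 151 and 127 CPM in the vehicle and 166 and 157 CPM in the cisplatin libraries, a log2 fold change of 0.22. Psmb4 was the lowest of the ring at 0.17. It stood at 241 and 197 CPM in the vehicle and at 239 and 254 CPM in the cisplatin libraries, so that its groups overlapped.

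The alpha rings form the ends of the barrel and the gate through which substrates enter. All 7 genes tested had both cisplatin libraries above both vehicle libraries (all genes tested, 20.6%). Their log2 fold changes were 0.20 to 0.49, with a median of 0.39. Psma4, whose product is central to the closed gate, stood at 83.9 and 95.9 CPM in the vehicle and 118 and 133 CPM in the cisplatin libraries, a log2 fold change of 0.49 (SE 0.19, edgeR adjusted p = 0.528). Psma7 stood at 173 and 176 CPM in the vehicle and 230 and 232 CPM in the cisplatin libraries, a log2 fold change of 0.41 (edgeR adjusted p = 0.552). Its replicates were nearly equal within each group. Psma2, Psma1, Psma6 and Psma3 lay between Psma4 and Psma5, at 0.43, 0.39, 0.32 and 0.23. Psma5 was the lowest of the rings at 0.20, and cisplatin replicate 1 at 68.0 CPM was barely above vehicle replicate 1 at 67.8 CPM.

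**Figure D2:**
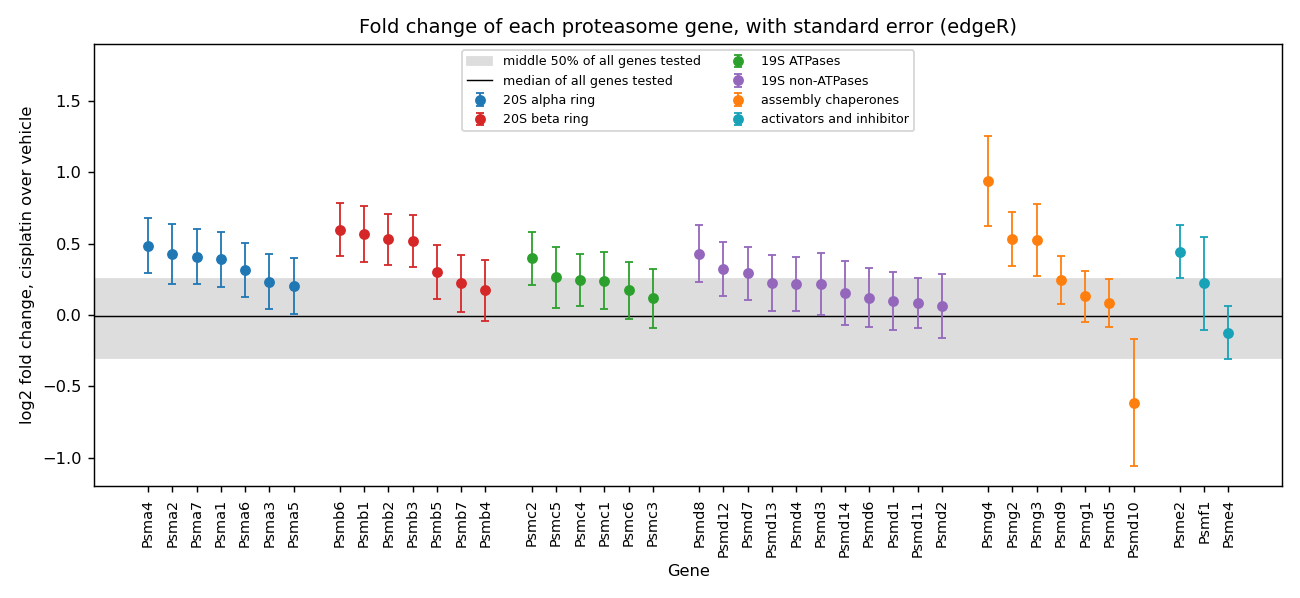
Log2 fold change of cisplatin over vehicle for each of the 41 tested genes with its standard error from edgeR (y axis), ordered by subcomplex (x axis); the grey band spans the middle 50% of all 14719 genes tested, from -0.30 to 0.25. Of the 41 genes 39 lie above 0 and 19 above the band.

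In the 19S particle the median was lower, although no test between subcomplexes was made. All 17 genes had a positive log2 fold change, with a median of 0.22, against 0.40 over the 14 core genes. Both cisplatin libraries lay above both vehicle libraries in 10 of the 17 and 13 of the 14 (all genes tested, 20.6%). Scaled to library size alone, those counts were 3 of 17 and 9 of 14, beside 14.9% of all genes tested, so that the share in the 19S particle was near that of all genes. Over the 6 ATPase genes, whose products unfold the substrate, the median was 0.24. Psmc2 was the highest of them, with 145 and 141 CPM in the vehicle and 185 and 193 CPM in the cisplatin libraries, a log2 fold change of 0.40 (SE 0.19, edgeR adjusted p = 0.553). Psmc5, Psmc4 and Psmc1 followed at 0.26, 0.25 and 0.24, each with groups that did not overlap, and Psmc6 was at 0.17 with overlapping groups. Psmc3 was the lowest, at 248 and 230 CPM in the vehicle and 247 and 272 CPM in the cisplatin libraries, a log2 fold change of 0.12 with overlapping groups.

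Over the 11 genes of the non-ATPase subunits, which hold the ubiquitin receptors, scaffolds and lid, the median was 0.21. It fell to 0.12 without vehicle replicate 2 and to 0.12 without cisplatin replicate 1. Psmd8, a lid gene, was the highest, at 132 and 120 CPM in the vehicle and 183 and 156 CPM in the cisplatin libraries, a log2 fold change of 0.43 (SE 0.20, edgeR adjusted p = 0.551). Psmd12, Psmd7 and Psmd13, also of the lid, stood at 0.32, 0.29 and 0.23 with groups that did not overlap. Psmd4, the gene of a ubiquitin receptor, had 145 and 126 CPM in the vehicle and 158 and 157 CPM in the cisplatin libraries, a log2 fold change of 0.22 with the groups apart. Psmd11 differed by only 0.08, with 104 and 98.9 CPM against 109 and 107 CPM. Groups overlapped in Psmd3, Psmd6 and Psmd1, at 0.21, 0.12 and 0.10, as they did in Psmd14 and Psmd2. Psmd14 encodes the deubiquitinase that strips ubiquitin chains from the substrate as it enters. Its values were 87.4 and 65.8 CPM in the vehicle and 93.4 and 77.4 CPM in the cisplatin libraries. In Psmd14 each replicate 1 was above each replicate 2, the groups overlapped, and the log2 fold change of 0.16 turned to -0.03 without vehicle replicate 2. Psmd2, the gene of a large scaffold that docks ubiquitin shuttles, was the lowest at 0.06, with 305 and 263 CPM in the vehicle and 320 and 272 CPM in the cisplatin libraries.

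FPKM values are per gene length and so allow genes to be set beside each other. Summed over subunits, the core stood at 1690 and 1621 FPKM in the vehicle and 2160 and 2205 FPKM in the cisplatin libraries. The 19S particle stood at 1469 and 1313 FPKM in the vehicle and 1672 and 1587 FPKM in the cisplatin libraries. The ratio of core to particle was 1.15 and 1.23 in the vehicle and 1.29 and 1.39 in the cisplatin libraries. The groups did not overlap in this ratio, but the gap between them, 1.23 to 1.29, was smaller than the difference within either group. The ratio of beta to alpha genes was 1.60 and 1.45 in the vehicle and 1.60 and 1.51 in the cisplatin libraries, and there the groups overlapped.

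**Figure D3:**
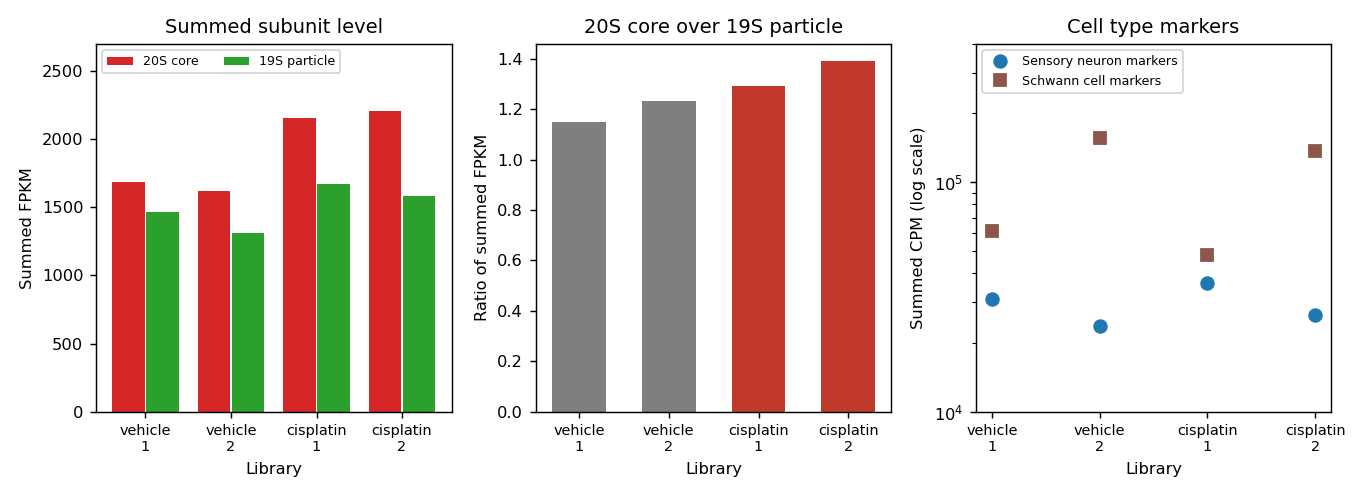
Summed FPKM of 20S core and 19S particle genes (left), the ratio of the 2 sums (middle) and the summed CPM of sensory neuron and Schwann cell markers on a log axis (right), each by library. Both core sums of the cisplatin libraries, 2160 and 2205 FPKM, lie above those of the vehicle libraries. The marker sums of the groups overlap, and their part in the core sums was not tested.

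Levels per length, in FPKM, were ordered by their mean over the 4 libraries. Psmb4 was highest at 271 FPKM, followed by Psma7 at 215, Psmb6 at 195, Psmb1 at 189 and Psmb5 at 173 FPKM, and the ranges of neighbours in this order overlapped. The place of Psmb5 differed in vehicle replicate 1, where at 164 FPKM it lay above Psmb6 and Psmb1, at 154 and 152 FPKM. It lay below both in vehicle replicate 2, at 146 FPKM against 155 and 152 FPKM, and in each cisplatin library. Median levels were 173 FPKM over the beta ring, 115 over the ATPases, 92.7 over the alpha ring, 75.9 over the non-ATPases and 21.9 over the assembly chaperones. Spearman's rho of the 41 levels between 2 libraries was 0.954 to 0.987, a description across genes that share libraries.

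Assembly chaperones, which put the rings and the base together and then leave, held both ends of the range. Over the 7 genes the median was 0.25. Both cisplatin libraries lay above both vehicle libraries in 6 (all genes tested, 20.6%) and below them in 1 (all genes tested, 21.2%). Psmg4 (ENSRNOG00000039265; chromosome 17, 31404578 to 31411957, minus strand, Rnor_6.0) encodes part of a dimer that guides alpha ring assembly. It had 160 and 218 counts in the vehicle and 397 and 419 counts in the cisplatin libraries, or 6.39, 11.1, 15.6 and 17.8 CPM. Its vehicle libraries lay apart from each other, and both were below the cisplatin libraries. The log2 fold change was 0.94 (SE 0.32, edgeR adjusted p = 0.522), the highest of the 41, and it was 0.61 without vehicle replicate 1 and 1.39 without vehicle replicate 2.

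Psmg2, whose product acts in the partner dimer of the same pathway, stood at 17.1 and 18.7 CPM in the vehicle and 25.3 and 26.6 CPM in the cisplatin libraries, a log2 fold change of 0.53 (SE 0.19, edgeR adjusted p = 0.522). Psmd10, the gene of gankyrin, a chaperone of the base, had few reads, with 40 and 25 counts in the vehicle and 26 and 20 counts in the cisplatin libraries. At this depth its log2 fold change of -0.61 had an SE of 0.44 (edgeR adjusted p = 0.666). Of the other four genes, Psmg1, Psmg3, Psmd5 and Psmd9, all had both cisplatin libraries above both vehicle libraries, by log2 fold changes of 0.08 to 0.53. Psmg3, the partner of Psmg4 in its dimer, was the highest of these, at 39.2 and 31.5 CPM in the vehicle and 60.3 and 41.6 CPM in the cisplatin libraries. Its cisplatin libraries lay farther apart from each other than the groups did, and without cisplatin replicate 1 its log2 fold change was 0.24.

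Activators and the inhibitor, which bind the ends of the core in place of the 19S particle, had values on both sides of 0. Psme2, a subunit of the interferon-inducible PA28 activator, stood at 39.5 and 37.2 CPM in the vehicle and 47.8 and 56.5 CPM in the cisplatin libraries, a log2 fold change of 0.44 (SE 0.19, edgeR adjusted p = 0.532). Psme4, the gene of the nuclear activator PA200, was at 107 and 99.9 CPM in the vehicle and 101 and 88.7 CPM in the cisplatin libraries, a log2 fold change of -0.12 with overlapping groups, and of 0.25 with the correction for gene length. Psmf1, the gene of the inhibitor PI31, spread widely within both groups, from 86.8 to 148 CPM in the vehicle and from 115 to 159 CPM in the cisplatin libraries. Its log2 fold change of 0.22 turned to -0.10 without vehicle replicate 1 and to -0.03 without cisplatin replicate 2.

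Of the 44 genes, 3 did not pass the filter. Psma8, the testis form of an alpha subunit, had 0 and 5 counts in the vehicle and 3 and 4 in the cisplatin libraries, and Psmb11, the thymus form of a beta subunit, had 4 and 7 against 8 and 0. Psme1, the partner of Psme2 in PA28, had 6 and 4 counts in the vehicle and 0 in both cisplatin libraries. Another row described as the same subunit had 0 and 3 against 1 and 0. These counts are too low to read a difference from. The row described as PSME3, the nuclear relative of PA28, carries the symbol G6pc in the table and so fell outside the rule. It had 733 and 668 counts in the vehicle and 948 and 670 in the cisplatin libraries (log2 fold change 0.06).

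Among the genes tested, other rows with the same description held few counts, and their sequences were not compared. Other rows described as the same subunit made up 3.43% of the summed counts for Psma6, 0.967% for Psmb6, 0.389% for Psma3 and 0.0301% for Psmb3. For Psmb6 the log2 ratio of mean CPM was 0.60 with and without its other row.

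Immunoproteasome genes, which are induced by interferon and whose products replace the catalytic beta subunits, made up a small share of the catalytic transcripts. Psmb8, Psmb9 and Psmb10 together took 8.78% and 6.75% of the summed catalytic FPKM in the vehicle and 7.24% and 7.13% in the cisplatin libraries, so that both cisplatin values fell within the vehicle range. Psmb8 had 68 and 30 counts in the vehicle and 85 and 106 in the cisplatin libraries, a log2 fold change of 0.88 (SE 0.43, edgeR adjusted p = 0.562). Psmb9 at 99 and 113 against 120 and 190 counts did not overlap as counts, but its CPM of 3.95 and 5.74 against 4.72 and 8.08 did. Psmb10 stood at 35.7 and 23.3 CPM in the vehicle and 37.3 and 32.5 CPM in the cisplatin libraries.

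**Figure D4:**
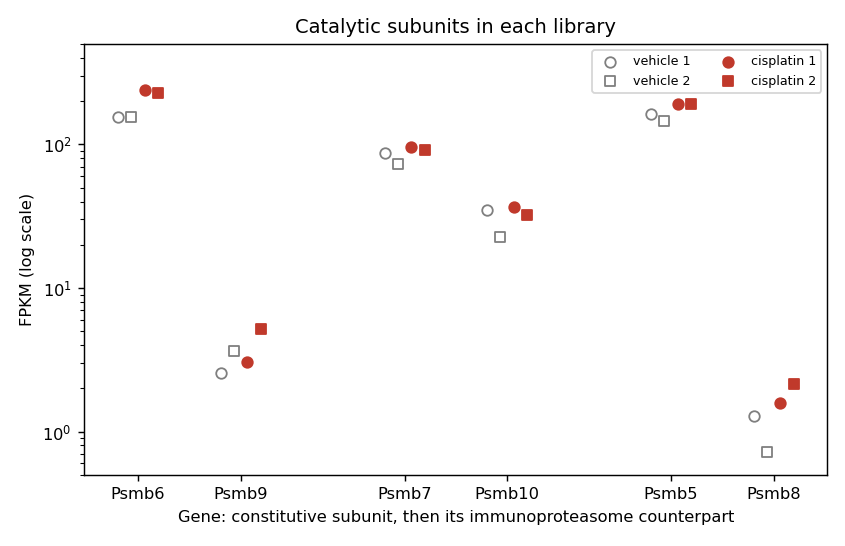
FPKM on a log axis (y) of each constitutive catalytic gene and its immunoproteasome counterpart (x) in the 4 libraries. Psmb6 and Psmb5 exceed 145 FPKM in every library, whereas Psmb8 and Psmb9 stay under 6 FPKM. The third pair lies closer together, with Psmb7 at 72.6 to 95.9 FPKM and Psmb10 at 22.6 to 36.6 FPKM.

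Other genes of the ubiquitin pathway had values in both directions. Of 39 genes with a row, edgeR called 0 in either direction, with 3 at an unadjusted p under 0.05, a share no higher than the 9.43% of all genes tested. The median log2 fold change was 0.09, against 0.25 for the proteasome genes and -0.01 for all genes, and both cisplatin libraries lay above both vehicle libraries in 14 of 39 (all genes tested, 20.6%) and below them in 4 of 39 (all genes tested, 21.2%). Ube2n, the gene of a ubiquitin-conjugating enzyme, had 1075 and 974 counts in the vehicle and 1636 and 1532 in the cisplatin libraries, a log2 fold change of 0.49 (SE 0.18, edgeR adjusted p = 0.522).

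The list also held genes that control or complete the proteasome. Nfe2l1 encodes the transcription factor that raises subunit genes when the proteasome is impaired. It had 4286 and 2546 counts in the vehicle and 3388 and 2707 in the cisplatin libraries, a log2 fold change of -0.28 with overlapping groups. Nfe2l2, the gene of its relative in the antioxidant response, was at -0.01, the ubiquitin receptor gene Adrm1 at 0.09 and the lid gene Sem1 at 0.09. Over the 7 genes of this control list the median was -0.12, and both cisplatin libraries lay above both vehicle libraries in 0 of the 7 (all genes tested, 20.6%) and below them in 2, Ngly1 and Mafg (all genes tested, 21.2%), which were named after their values were seen. The core maturation factor Pomp has 2 rows on chromosome 12. The row with its symbol had 33 and 21 counts in the vehicle and 32 and 34 in the cisplatin libraries, whereas a second row with the same description, named after its values were seen, had 487 and 386 against 818 and 826 (log2 fold change 0.78, edgeR adjusted p = 0.522). Uchl1, a ubiquitin hydrolase abundant in neurons, had 44225 and 29464 counts in the vehicle and 84986 and 51844 in the cisplatin libraries, a log2 fold change of 0.77 (edgeR adjusted p = 0.559), which was 0.44 without cisplatin replicate 1.

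Gene length moved with the fold change in these libraries. Proteasome genes are short, with a median of 1361 bases against 2371 over all genes tested, and over all genes the median fell from 0.29 in the shortest of 10 length bins to -0.30 in the longest. Spearman's rho between log2 fold change and length was -0.36 over all 14719 genes and -0.55 over the 41 proteasome genes, as descriptions across genes. After a lowess correction for length, the median over the 41 genes was 0.23, against 0.07 over all genes, 40 of 41 were above 0, and both cisplatin libraries lay above both vehicle libraries in 28 of 41 (all genes tested, 24.5%). The core and the 19S particle came closer together, with medians of 0.28 and 0.20. The part of length in the difference between the core, with a median of 966 bases, and the particle, with 1588, was not tested further.

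**Figure D5:**
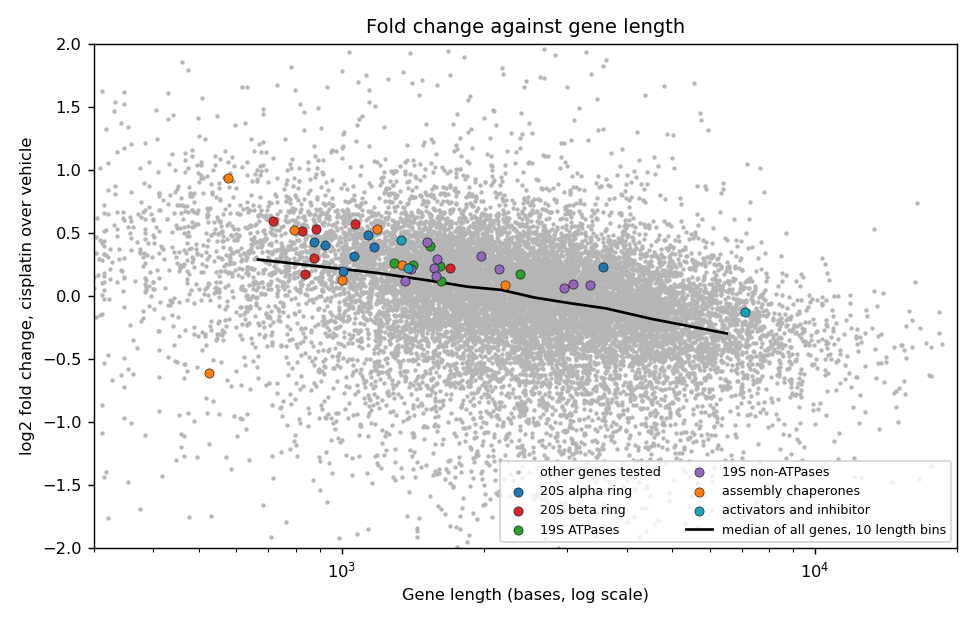
Log2 fold change of cisplatin over vehicle (y axis) against gene length in bases on a log axis (x axis) for all genes tested within 2 log2 units (grey) and the 41 proteasome genes (coloured by subcomplex), with the median of all genes in 10 length bins (line). The line falls from 0.29 to -0.30, and 36 of the 41 proteasome genes lie above the median of their own bin.

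Sensory neuron markers summed to 30962 and 23511 CPM in the vehicle and 36480 and 26399 CPM in the cisplatin libraries. Their median log2 fold change was 0.26 over 12 genes. In 3 of the 12 both cisplatin libraries lay above both vehicle libraries (all genes tested, 20.6%), and in 0 below them (all genes tested, 21.2%). The sums overlapped between the groups. Schwann cell markers had a median of -0.49 over 6 genes, markers of fibroblasts and meninges -0.44 over 6, satellite glia 0.01 over 4, macrophages 0.10 over 9 and endothelium -0.13 over the 2 of 3 that were tested, with Cldn5 at 0 in every library. Skeletal muscle markers had a median of -3.25 over 4 genes, with vehicle replicate 1 far above the other libraries. The part of any of these in the levels of the proteasome genes was not tested.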

How the data were processed

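Messenger RNA of 4 libraries, 2 per group, was selected with poly-T beads and sequenced as paired reads. The authors mapped reads to the rat genome Rnor_6.0 (Ensembl) with HISAT2 2.0.5, assembled transcripts with StringTie 1.3.3b and deposited raw counts per gene, without normalisation. The submitters' processing notes also list featureCounts 1.5.0-p3. Whether strand was used in counting is not given in the sources used here, which leaves overlapping genes and close copies uncertain. FPKM values, as deposited by the authors, are counts per gene length and library depth. Groups came from the sample titles.

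Protein-coding genes kept by filterByExpr, 14719 of 22293, were scaled by TMM factors (0.938 to 1.10) and tested by the quasi-likelihood method of edgeR 4.0.16 in R 4.3.3, with treatment as the only term. A call needed a fold change of at least 1.5 and a Benjamini-Hochberg adjusted p below 0.05 over all genes tested. DESeq2 1.42.0 and limma 3.58.1 on log2(FPKM + 1) and log2(FPKM + 0.1) served as alternatives, and on the FPKM scale changes of low genes are understated. The length correction was a lowess curve of log2 CPM on log length per library, span 0.3, taken as an offset. The other alternatives were other size factors, other filters, all biotypes, unadjusted p, the replicate number as a block and leaving out each library. The fits were tested on simulated data. These had a lower dispersion than the fit without a block, and the changes put into single genes were larger than those of the proteasome genes. They do not show how the fits perform on differences as small as these.

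The members, the gene lists and the tests were chosen with earlier results of these data known. Named with values were the 10 genes with the smallest p, the highest and lowest of each subcomplex, the catalytic subunits, Psmd14, genes that missed the filter and a few pathway genes. Some genes that this rule covers are left out. Of 43 pathway symbols 39 rows were used, 3 of them matched by protein description, and 2 symbols had no row. Promoters came from RefSeq, build GRCr8, and were matched by symbol; no coordinates were converted between builds.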

Additional observations from a re-analysis of the deposited data

How the results depend on the processing

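Calls over all genes, 0 higher and 1 lower in the edgeR fit, were 2 and 2 without the filter on low counts, 1 and 1 with a minimum of 10 counts per library, 36 and 63 with DESeq2, 407 and 763 at an unadjusted p, 2 and 2 with limma on log2(FPKM + 1) and 1 and 1 on log2(FPKM + 0.1). Of the 41 proteasome genes, 2 (Psmb6 and Psmg4) were called at an unadjusted p, and of the 39 pathway genes 2. Each other alternative without a block called 0 of both.

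The titles number the rats 1 and 2 in each group, whereas the deposited counts number the cisplatin libraries otherwise. Same-numbered libraries are different rats, and no label says whether they share anything more than the number in the title. Deviations of same-numbered libraries correlated at r = 0.43 over 14682 genes and 0.59 over the 41. With the replicate block, edgeR called 494 genes higher (3.36%) and 1038 lower, among them 2 proteasome genes, Psmb6 (adjusted p = 0.00700 from edgeR) and Psmg4 (adjusted p = 0.0105 from edgeR), and 3 pathway genes. Adding the length correction to the block gave 396 and 611, with 1 proteasome gene, Psmg4 (adjusted p = 0.0417 from edgeR), and 4 pathway genes. DESeq2 with the block called 361 higher and 680 lower of 12848 genes tested, with 2 proteasome genes, Psmb6 and Psmg4, and 3 pathway genes. Without a block, adjusted p-values over the alternatives ran from 0.326 to 0.996 for Psmb6 and from 0.341 to 0.996 for Psmg4. At an unadjusted p under 0.05 in edgeR, 20 of the 41 stood out with the block, against 7 without it. The count was 16 with the block and length correction and 18 by DESeq2 with the block. The share of all genes at that threshold was not taken with the block, so these counts have no background beside them. At the adjusted threshold the block raised the share of all genes called in edgeR from 0.00679% to 10.4%. The block lowered the common dispersion from 0.0711 to 0.0209.

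The median log2 fold change of the 41 genes, 0.25, was 0.19 with library size alone, 0.23 with the length correction, with or without the block. The medians of the alpha and beta rings were 0.27 and 0.35 with the length correction and 0.27 and 0.35 with the block besides. Non-overlapping higher genes were 15 with library size alone. With the length correction, log2 fold changes turned to 0.25 in Psme4, 0.038 in Nfe2l2, -0.023 in Pomp and -0.10 in Sem1, and with the block besides to 0.24, 0.042, -0.015 and -0.092.

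With 1 library left out, the lone library is assumed to vary like the other group. Calls were then 0 to 4 higher and 0 to 3 lower over all genes, and 0 of the 41. The median ran from 0.23 to 0.34 over the 41 genes, from 0.18 to 0.29 over the ATPases, from 0.12 to 0.29 over the non-ATPases and from -0.063 to 0.45 over activators and inhibitor, below 0 without vehicle replicate 1 and without cisplatin replicate 2. The sign turned in Psmd14 and Psmd2 without vehicle replicate 2 (-0.035 and -0.042), in Psmd2 without cisplatin replicate 1 (-0.054), in Psmd6 and Psmf1 without cisplatin replicate 2 (-0.042 and -0.033) and in Psmf1 without vehicle replicate 1 (-0.10). It also turned in Psmb9 without cisplatin replicate 2 (-0.035), in Psmb10 and Sem1 without vehicle replicate 2 (-0.033 and -0.034), and in Nfe2l2 without vehicle replicate 2 (0.29) and without cisplatin replicate 1 (0.23). Over the 4 omissions these genes ran from -0.035 to 0.39 in Psmd14, -0.054 to 0.18 in Psmd2, -0.042 to 0.28 in Psmd6, -0.10 to 0.66 in Psmf1, -0.035 to 0.75 in Psmb9, -0.033 to 0.60 in Psmb10, -0.29 to 0.29 in Nfe2l2 and -0.034 to 0.23 in Sem1. The cause of these changes was not tested. With 2 libraries per group, the median SE of the 41 genes was 0.19, close to their median difference of 0.25.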
